A study of Caenorhabditis elegans with 18 samples.

Results

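The heat shock protein and DnaJ genes of *Caenorhabditis elegans* are the genes of the mRNA-seq table whose names begin with hsp- or dnj-. There were 52 such genes among 29970 in the table, 23 of them hsp- genes and 29 of them dnj- genes. All 52 passed the filter on low values, a mean normalized count of at least 2 over the 9 mRNA libraries, as did 17037 genes in all. The animals were *tcer-1(tm1452)* mutants (strain CF2166) and *tcer-1(glm27)* mutants (AGP278), each set against wildtype N2, with 3 biological replicates of mRNA-seq and 3 of small RNA-seq per genotype. All were gravid adults collected at 72 h, fed OP50 bacteria at 20 °C, and the sources describe no heat stress or infection. TCER-1 is a transcription elongation and splicing factor. *tcer-1(glm27)* is a genome-edited deletion of the gene, and *tcer-1(tm1452)* is an older deletion allele whose populations the study describes as less synchronous in development.

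Heat shock proteins are chaperones, which keep other proteins folded or hold unfolded ones in solution. Small heat shock proteins bind unfolding proteins without using ATP. HSP70 proteins fold clients in cycles of ATP hydrolysis, DnaJ proteins (also called HSP40) bring them clients and start hydrolysis, and HSP110 releases the nucleotide. Some of these genes are transcribed in every cell at all times, others almost only after stress, when the factor HSF-1 binds heat shock elements, inverted repeats of the unit GAA, upstream of them. The *hsp-16* genes and *hsp-70* are the classic inducible genes of the worm, and the *hsp-16* genes lie in divergent pairs that share 1 upstream region.

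The stretches upstream of the *hsp-16* pairs are shown because they are the classic heat-inducible genes, and those of *hsp-110*, *hsp-90* and *hsp-1* because these constitutive genes carry the same motif. Capitals mark matches of GAANNTTC and TTCNNGAA, which each read the same on either strand and may overlap. The sequences are from the WBcel235 assembly, read at the gene starts of an Ensembl annotation, and run 5′ to 3′ on the strand given. The *hsp-16.2* to *hsp-16.41* region is the whole interval between both genes (chrV:1804958-1805177, plus strand). The others run from 20 bases before the first match to 20 after the last, or to the gene start: *hsp-16.1* to *hsp-16.48* (chrV:9087846-9088052, plus strand), *hsp-110* (chrIII:8446992-8447166, minus strand), *hsp-90* (chrV:14684813-14684917, plus strand) and *hsp-1* (chrIV:17278795-17278847, plus strand).
hsp-16.2 to hsp-16.41: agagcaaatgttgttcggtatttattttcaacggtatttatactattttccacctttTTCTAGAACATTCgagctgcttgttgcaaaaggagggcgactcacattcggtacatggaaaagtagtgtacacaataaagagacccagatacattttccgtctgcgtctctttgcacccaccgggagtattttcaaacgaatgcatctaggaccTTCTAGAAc
hsp-16.1 to hsp-16.48: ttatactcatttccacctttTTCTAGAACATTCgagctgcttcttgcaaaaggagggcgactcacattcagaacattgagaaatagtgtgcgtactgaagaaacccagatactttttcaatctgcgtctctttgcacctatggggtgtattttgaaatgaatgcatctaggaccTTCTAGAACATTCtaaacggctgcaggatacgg
hsp-110: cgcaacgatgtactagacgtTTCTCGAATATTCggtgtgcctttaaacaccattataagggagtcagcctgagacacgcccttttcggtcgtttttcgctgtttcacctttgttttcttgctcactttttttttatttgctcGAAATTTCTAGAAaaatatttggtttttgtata
hsp-90: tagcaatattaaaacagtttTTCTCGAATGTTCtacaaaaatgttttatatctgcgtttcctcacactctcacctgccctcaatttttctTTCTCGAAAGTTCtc
hsp-1: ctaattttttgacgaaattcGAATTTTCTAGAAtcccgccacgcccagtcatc

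Within 300 bases upstream of the annotated gene start, all 7 inducible genes held both forms of the element, with 3 or 4 matches each. These windows are not independent. Both genes of an *hsp-16* pair read the same region, and the region of *hsp-16.1* and *hsp-16.48* recurs inverted between *hsp-16.49* and *hsp-16.11*. The interval between *hsp-16.2* and *hsp-16.41* has 220 bases, so their windows also run into the neighbouring gene. Among 19984 such windows of the annotation, 32.0% held either form, 4.89% held both and 0.325% held at least 4 matches. Of 9 constitutive hsp- genes, 4 held both forms, namely *hsp-110* and *hsp-90* with 4 matches each and *hsp-1* and *hsp-4* with 2 each. The matches of *hsp-1* overlap, and those of *hsp-4* lie apart. Of 7 other small heat shock protein genes only *hsp-17* held a match, and of 29 dnj- genes 11 did. TGACGTG, a motif of the unfolded protein response of the endoplasmic reticulum, lay upstream of *hsp-3*, *hsp-4*, *dnj-15*, *dnj-20*, *dnj-28* and *dnj-29*, against 2.83% of all windows. Such matches describe letters and were not tested as binding sites.

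The targeted gene was checked first. The normalized count of *tcer-1*, the deposited read count divided by the authors' size factor, was 949 ± 82.2 in *tcer-1(tm1452)* animals, 498 ± 29.3 in *tcer-1(glm27)* animals and 6085 ± 239 in wildtype (SD, n = 3 each). Counts thus remained in *tcer-1(glm27)* animals, although the study describes that allele as a deletion of the full gene. Where these reads lie was not examined. The read depth of the mRNA libraries was only estimated, by dividing the total of normalized counts by an inferred value of a single read. The estimates ran from 17998459 in *tcer-1(tm1452)* replicate 2 to 27818071 in *tcer-1(tm1452)* replicate 1. They are uncertain, since only 35.46% and 38.95% of the low values in these libraries were whole reads on that inference. The members together held 1.18 to 1.45% of the normalized counts. The RNA came from whole animals, so fewer cells of a type and less RNA per cell cannot be told apart. Marker sums moved with genotype: 37 of 37 tested sperm genes rose in *tcer-1(tm1452)* animals and 34 in *tcer-1(glm27)* animals (sums of 21314 to 24499, 4397 to 5589 and 655 to 904 in *tcer-1(tm1452)* animals, *tcer-1(glm27)* and wildtype libraries). Of 6 body wall muscle genes, 6 rose in *tcer-1(tm1452)* animals and 5 in *tcer-1(glm27)* animals (sums of 134967 to 152066, 55120.2 to 60048 and 35629.8 to 46775). Of 10 oocyte and germline genes, 8 fell in *tcer-1(tm1452)* animals and 9 in *tcer-1(glm27)* animals (sums of 158358 to 173993, 158751 to 174957 and 238230 to 254044). Of 11 yolk and intestine genes 3 rose and 7 fell in *tcer-1(tm1452)* animals and 5 rose in *tcer-1(glm27)* animals, of 7 neuronal genes 5 rose and 2 fell and 3 rose and 1 fell, and of 8 molting and cuticle genes 5 rose and 3 fell and 6 rose. Among all genes tested, 35.3% rose and 34.1% fell in *tcer-1(tm1452)* animals, and 33.2% and 27.5% in *tcer-1(glm27)* animals. The part of the marker genes in the results was not tested.

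Divided by transcript length, wildtype levels of the members spanned a wide range. The highest were *hsp-90* with 41074 ± 1820 and *hsp-1* with 40057 ± 552 normalized counts per kb, which did not differ beyond their spread, followed by *hsp-4* with 7688 ± 471 (SD, n = 3 each). *hsp-90* encodes the cytosolic HSP90, *hsp-1* the constitutive cytosolic HSP70, and *hsp-4* a BiP, the HSP70 of the endoplasmic reticulum. The lowest were *hsp-2* with 30.4 ± 3.60, an annotated pseudogene, *hsp-16.1* with 32.4 ± 29.4 and *hsp-12.6* with 49.0 ± 4.68 per kb. The spread of *hsp-16.1* covers both of its neighbours. Its place among the lowest is uncertain, since the authors' counting shared reads between it and its copy *hsp-16.11*, listed with 4210 ± 286 per kb. Of the other inducible genes in these unstressed wildtype animals, *hsp-70* stood at 472 ± 25.8 per kb, *hsp-16.2* at 685 ± 64.9 and *hsp-16.41* at 710 ± 41.5. *hsp-16.48* and *hsp-16.49*, which are also copies of each other, were listed with 634 ± 1075 and 2968 ± 963 per kb.

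Genes were called at an adjusted p under 0.05, from limma fitted to log2(normalized count + 1) of all tested genes with Benjamini-Hochberg adjustment. Fold changes are on that scale, which can understate changes of low genes. Where single libraries hold 0 it can also overstate them. *hsp-16.48* had a log2 fold change of 6.73 in *tcer-1(tm1452)* animals, while its mean was 8.45 times that of wildtype. In *tcer-1(tm1452)*, 15 of the 52 members (28.8%) rose and 29 (55.8%) fell, against 35.3% and 34.1% of all genes tested. At least 2-fold, 11 members (21.2%) rose and 0 fell, against 20.2% and 7.51% of all genes. In *tcer-1(glm27)*, 13 of the 52 members rose and 30 (57.7%) fell, against 33.2% and 27.5% of all genes, and 3 rose and 0 fell at least 2-fold, against 14.5% and 2.07%. Without the 2-fold requirement, the share that rose was thus below the background in both mutants and the share that fell above it. The median log2 fold change of the members was -0.15 in *tcer-1(tm1452)* animals and -0.24 in *tcer-1(glm27)* animals, and that of all genes 0.02 and 0.13. Both comparisons share the wildtype libraries.

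The 4 families of members differed in direction. The 7 inducible genes all rose at least 2-fold in *tcer-1(tm1452)* animals, and 6 rose in *tcer-1(glm27)* animals, 3 of them at least 2-fold. Those 3, *hsp-16.1*, *hsp-16.11* and *hsp-16.48*, belong to pairs of identical copies whose separate values are uncertain, as given below. The copies count as separate members here and in the shares above. Of all genes tested, 35.3% rose and 34.1% fell in *tcer-1(tm1452)* animals, and 33.2% and 27.5% in *tcer-1(glm27)* animals. At least 2-fold, 20.2% and 14.5% rose. Of the 7 other small heat shock protein genes, 4 rose in *tcer-1(tm1452)* animals and 6 in *tcer-1(glm27)* animals, and 0 fell in either. Of the 9 constitutive hsp- genes, 1 rose and 7 fell in *tcer-1(tm1452)* animals, and 8 fell in *tcer-1(glm27)* animals. Of the 29 dnj- genes, 3 rose and 22 fell in *tcer-1(tm1452)* animals, and 1 rose and 22 fell in *tcer-1(glm27)* animals.

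**Figure D1:**
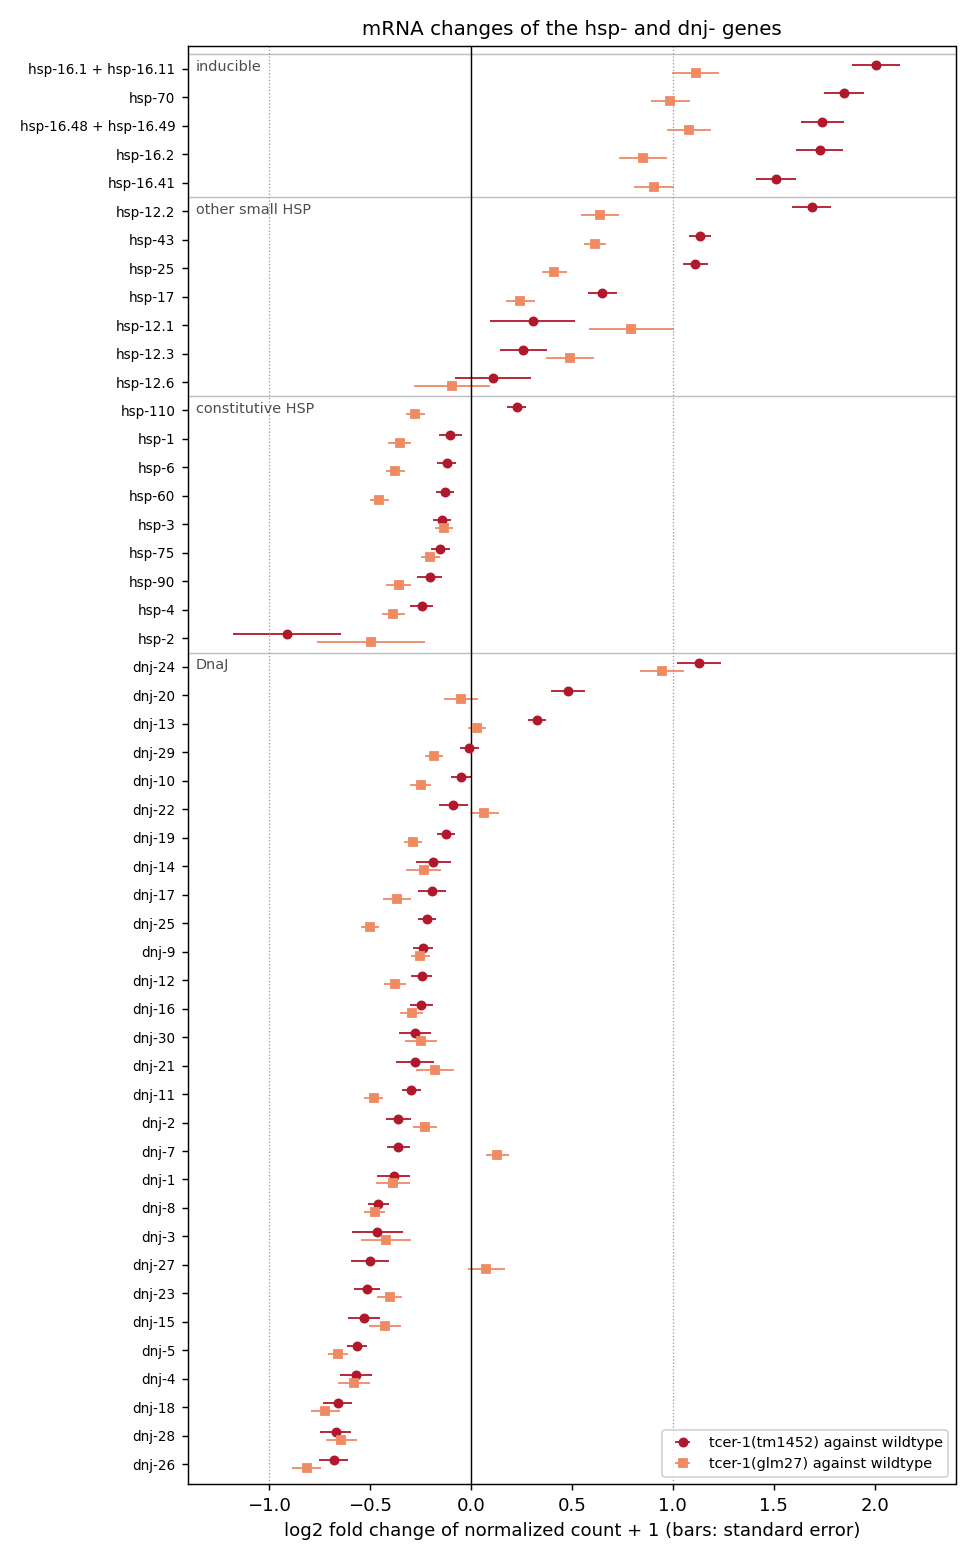
The log2 fold change of the normalized count + 1 (x axis) of each member (y axis, by family, with identical copies summed), in *tcer-1(tm1452)* (circles) and *tcer-1(glm27)* (squares) against wildtype, with standard errors as bars and dotted lines at 2-fold. Inducible genes and most other small heat shock protein genes lie right of 0, constitutive hsp- genes other than *hsp-110* lie left of 0 in both mutants, and *dnj-24* stands right of the other dnj- genes.

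Among the inducible genes, *hsp-70* encodes the stress-inducible cytosolic HSP70. It had 3305, 3621 and 3553 normalized counts in *tcer-1(tm1452)* animals, 1726, 1736 and 2385 in *tcer-1(glm27)* animals and 946, 935 and 1032 in wildtype. The 3 groups did not overlap, with *tcer-1(glm27)* between the other two. How often groups separate among all genes or loci was not counted, so such separation, here and below, only describes the values. Its log2 fold change reached 1.85 in *tcer-1(tm1452)* animals (standard error 0.10, limma adjusted p = 8.37e-10), beside 0.99 in *tcer-1(glm27)* animals (standard error 0.10, limma adjusted p = 1.03e-06). The mutants differed from each other by 0.86 (standard error 0.10, limma adjusted p = 7.32e-06). *hsp-70* overlaps *uggt-2* on the other strand.

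The small heat shock protein genes *hsp-16.2* and *hsp-16.41* share the upstream region shown above. *hsp-16.2* had 1259, 1234 and 1442 normalized counts in *tcer-1(tm1452)* animals, 625, 647 and 897 in *tcer-1(glm27)* animals and 375, 374 and 439 in wildtype. *hsp-16.41* had 1261, 1261 and 1375 in *tcer-1(tm1452)* animals, 751, 794 and 1043 in *tcer-1(glm27)* animals and 446, 433 and 484 in wildtype. For both genes the groups lay apart in the same order as for *hsp-70*. The log2 fold changes of *hsp-16.2* were 1.73 and 0.85 in *tcer-1(tm1452)* and *tcer-1(glm27)* animals (standard error 0.12, limma adjusted p = 1.03e-08 and 2e-05), and those of *hsp-16.41* were 1.51 and 0.91 (standard error 0.10, limma adjusted p = 7.44e-09 and 2.44e-06).

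The other 4 *hsp-16* genes form an inverted repeat in which *hsp-16.1* pairs with *hsp-16.11* and *hsp-16.48* with *hsp-16.49*. All exonic bases of the 4 genes lay in perfect matches of at least 50 bases elsewhere in the genome, and the pairs are called identical copies for that. Their annotated exons need not be equal, with 438 bases for *hsp-16.1* and 476 for *hsp-16.11*. The authors' counting shared reads between the copies, and their separate values are therefore uncertain. Thus *hsp-16.48* was listed with 809.7, 0 and 11.45 normalized counts in wildtype while *hsp-16.49* had 809.7, 1442 and 1594. Taken apart, the log2 fold changes in *tcer-1(tm1452)* animals ran between 1.22 for *hsp-16.49* and 6.73 for *hsp-16.48*, which has a standard error of 1.52. The fold changes of *hsp-16.1* (4.23 in *tcer-1(tm1452)* animals and 3.32 in *tcer-1(glm27)* animals, standard error 0.87) rest on 17.4, 25.1 and 0 normalized counts in wildtype. *hsp-16.11* held nearly all the reads of its pair and rose by 1.99 in *tcer-1(tm1452)* animals and 1.10 in *tcer-1(glm27)* animals on the log2 scale. *hsp-16.49* had a log2 fold change of 0.48 in *tcer-1(glm27)* animals and missed the threshold there (limma adjusted p = 0.0501). It passed with equal upper quartiles, equal totals or median-of-ratios scaling, at 0.57, 0.53 and 0.58.

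Summing the copies, which was decided after the values were seen, removed this scatter. *hsp-16.1* and *hsp-16.11* together had 8079, 7992 and 8237 normalized counts in *tcer-1(tm1452)* animals, 3756, 3859 and 5739.7 in *tcer-1(glm27)* animals and 2065, 1876 and 2113 in wildtype. *hsp-16.48* and *hsp-16.49* together had 5168, 5184 and 5236 in *tcer-1(tm1452)* animals, 2747, 3106 and 4168 in *tcer-1(glm27)* animals and 1619, 1442 and 1606 in wildtype. Again no group overlapped another. The log2 fold changes of the first sum were 2.01 in *tcer-1(tm1452)* animals and 1.11 in *tcer-1(glm27)* animals (standard error 0.12), and those of the other sum were 1.74 and 1.08 (standard error 0.11). The mutants differed by 0.89 for *hsp-16.1* and *hsp-16.11* (limma adjusted p = 2.34e-05) and by 0.66 for *hsp-16.48* and *hsp-16.49* (limma adjusted p = 0.000173).

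**Figure D2:**
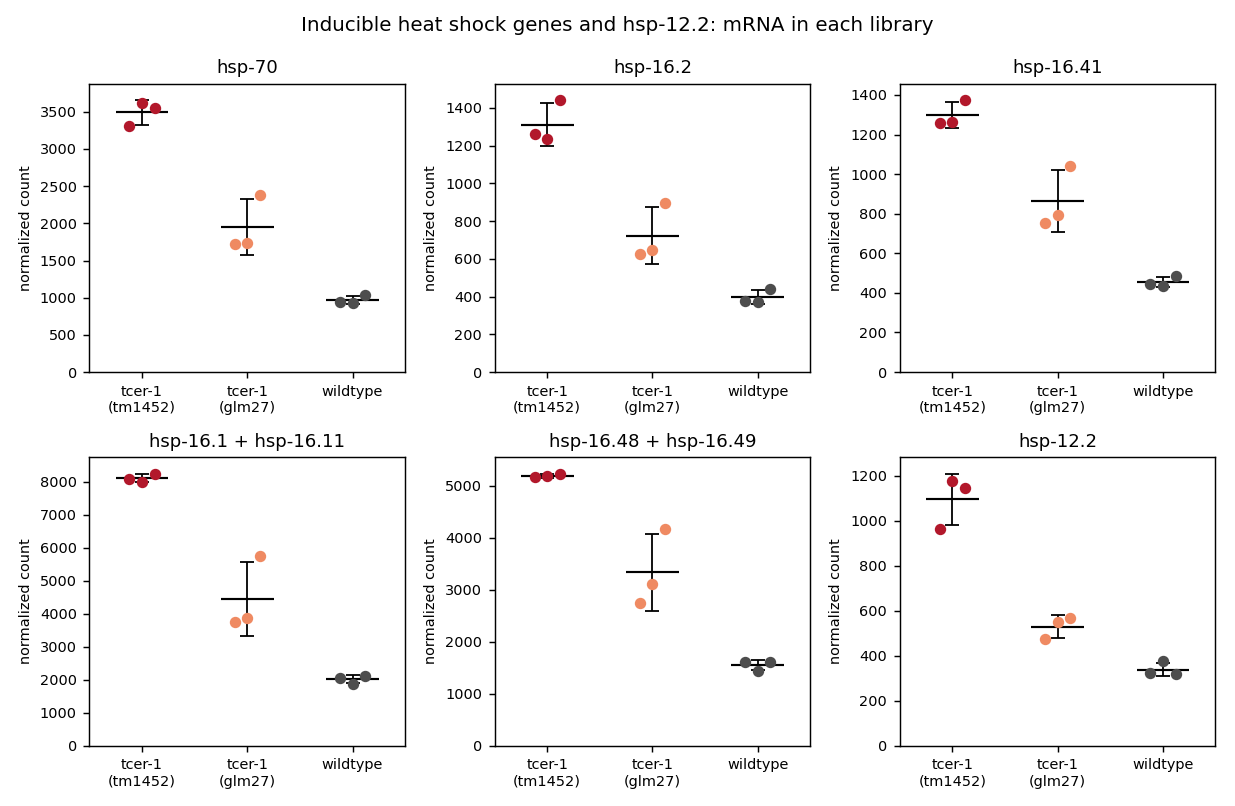
Normalized counts (y axis, from 0) of 6 genes or summed identical copies in each library, for *tcer-1(tm1452)*, *tcer-1(glm27)* and wildtype (x axis), with each point a library, the line the mean and the bar the SD (n = 3). The *tcer-1(tm1452)* libraries are highest and the wildtype libraries lowest for each, and the highest *tcer-1(glm27)* point is replicate 3.

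In *tcer-1(glm27)*, replicate 3 stood above the other two replicates for all 7 inducible genes, at 1.32 to 1.79 times their mean. Across the 45 other members this ratio ran between 0.838 and 1.11, and across all genes tested its median was 0.988 and 9.4% reached the 1.32 of the lowest inducible gene. Without that library the log2 fold change in *tcer-1(glm27)* animals was 0.83 for *hsp-70*, 0.69 for *hsp-16.2*, 0.76 for *hsp-16.41* and 0.90 for *hsp-16.11*, and each still passed the test, with 13 members higher as before. All 5 inducible genes whose difference between the mutants passed the test (*hsp-70*, *hsp-16.2*, *hsp-16.41*, *hsp-16.11* and *hsp-16.49*) were higher in *tcer-1(tm1452)* animals.

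The other small heat shock protein genes are expressed during development or at rest, and are weakly or not inducible by heat. Of these, *hsp-12.2* changed most in *tcer-1(tm1452)* animals. It had 964, 1175 and 1146 normalized counts in *tcer-1(tm1452)* animals, 473, 550.0 and 566 in *tcer-1(glm27)* animals and 322, 375 and 319.8 in wildtype, again in 3 separate groups. Its log2 fold change reached 1.69 in *tcer-1(tm1452)* animals (standard error 0.09, limma adjusted p = 1.3e-09), beside 0.64 in *tcer-1(glm27)* animals (limma adjusted p = 3.7e-05). The difference between the mutants, 1.05 (limma adjusted p = 6.11e-07), was the only one of a member's mRNA to reach 2-fold. *hsp-12.2* has a gene on its other strand, *C14B9.8*, as have *hsp-17* (*F52E1.14*) and *hsp-25* (*ipp-5*), and the strand that was counted is not given in the sources used here.

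*hsp-25*, known from dense bodies and M-lines of body wall muscle, had 2310.5, 2732 and 2481 normalized counts in *tcer-1(tm1452)* animals, 1537, 1550.2 and 1538 in *tcer-1(glm27)* animals and 1112, 1218 and 1143 in wildtype. *hsp-43* had 2544, 2609 and 2566 in *tcer-1(tm1452)* animals, 1664, 1863 and 1873 in *tcer-1(glm27)* animals and 1159, 1146 and 1210.5 in wildtype. Both genes split the genotypes without overlap, with log2 fold changes in *tcer-1(tm1452)* and *tcer-1(glm27)* animals of 1.11 and 0.41 for *hsp-25* and of 1.13 and 0.62 for *hsp-43* (standard errors 0.06 and 0.05). The muscle marker sums given above moved in the same order, and their part was not tested. *hsp-17* rose less, by 0.65 in *tcer-1(tm1452)* animals and 0.25 in *tcer-1(glm27)* animals on the log2 scale (limma adjusted p = 1.57e-06 and 0.00812).

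The remaining small genes stood out from this order. *hsp-12.1* had 39.0, 54.3 and 37.9 normalized counts in *tcer-1(tm1452)* animals, 63.6, 63.0 and 56.5 in *tcer-1(glm27)* animals and 42.7, 35.5 and 27.6 in wildtype. It rose in *tcer-1(glm27)* animals (log2 fold change 0.80, limma adjusted p = 0.00447) and its value in *tcer-1(tm1452)* animals was 0.31 (limma adjusted p = 0.207), with overlap between *tcer-1(tm1452)* and wildtype. *hsp-12.3* likewise rose in *tcer-1(glm27)* animals, by 0.49 (limma adjusted p = 0.00219), with 0.26 in *tcer-1(tm1452)* animals (limma adjusted p = 0.0618), though this value passed with equal upper quartiles (0.30, limma adjusted p = 0.032) and after median-of-ratios scaling (0.35, limma adjusted p = 0.0162). For both genes the difference between the mutants did not pass the test (limma adjusted p = 0.07 and 0.12). *hsp-12.6*, a known target of the longevity factor DAF-16, had 36.6, 39.8 and 46.0 in *tcer-1(tm1452)* animals, 34.9, 34.2 and 36.4 in *tcer-1(glm27)* animals and 41.3, 37.6 and 34.1 in wildtype, with all groups overlapping wildtype.

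Apart from the pseudogene *hsp-2*, described with its 22G-RNAs, the constitutive chaperone genes moved by small amounts and mostly down. *hsp-90* had 82515, 86141 and 83614 normalized counts in *tcer-1(tm1452)* animals, 77805, 72705 and 76345 in *tcer-1(glm27)* animals and 92337, 97485 and 100862 in wildtype. Both mutants lay below wildtype, with log2 fold changes of -0.20 in *tcer-1(tm1452)* animals and -0.36 in *tcer-1(glm27)* animals (standard error 0.06, limma adjusted p = 0.00788 and 0.000133). *hsp-1* had 73679, 81415 and 77321 in *tcer-1(tm1452)* animals, 66306, 64026 and 64878 in *tcer-1(glm27)* animals and 82086, 82718 and 84307 in wildtype. It fell in *tcer-1(glm27)* animals (-0.35, limma adjusted p = 0.000107), and its value in *tcer-1(tm1452)* animals was -0.10 (limma adjusted p = 0.135, and -0.12 with limma adjusted p = 0.0484 with equal totals).

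*hsp-110*, the nucleotide exchange factor of HSP70, was the one constitutive gene whose direction differed between the alleles. It had 15287, 15996 and 15909.5 normalized counts in *tcer-1(tm1452)* animals, 11250.2, 10688 and 11388 in *tcer-1(glm27)* animals and 13308, 13648 and 13344 in wildtype. The *tcer-1(tm1452)* libraries lay above and the *tcer-1(glm27)* libraries below all wildtype libraries. Its log2 fold changes were 0.23 in *tcer-1(tm1452)* animals (limma adjusted p = 0.000496), beside -0.27 in *tcer-1(glm27)* animals (limma adjusted p = 0.000123), and the difference of 0.50 between the mutants passed the test (standard error 0.05, limma adjusted p = 7.27e-07).

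The organelle chaperones also fell. *hsp-6*, the mitochondrial HSP70, and *hsp-60*, the mitochondrial chaperonin, had log2 fold changes of -0.12 and -0.13 in *tcer-1(tm1452)* animals and of -0.37 and -0.45 in *tcer-1(glm27)* animals. *hsp-60* had 10429, 10528 and 10916 normalized counts in *tcer-1(tm1452)* animals, 8665, 8538 and 8247 in *tcer-1(glm27)* animals and 11674, 11247 and 11917 in wildtype, and the mutants differed by 0.32 (limma adjusted p = 4.77e-05). For *hsp-3* and *hsp-4*, the BiP genes, the values were -0.14 and -0.24 in *tcer-1(tm1452)* animals and -0.13 and -0.38 in *tcer-1(glm27)* animals, and for *hsp-75*, related to the mitochondrial HSP90 TRAP1, they were -0.15 and -0.20. With median-of-ratios scaling, under which the median gene moved by 0.11 in *tcer-1(tm1452)* animals, the decreases of *hsp-3*, *hsp-6*, *hsp-60*, *hsp-75* and *hsp-90* in *tcer-1(tm1452)* animals no longer passed the test, at log2 fold changes of -0.06, -0.03, -0.04, -0.06 and -0.12. With equal upper quartiles *hsp-6* and *hsp-60* also missed the threshold in *tcer-1(tm1452)* animals (limma adjusted p = 0.128 and 0.0632). The decrease of *hsp-3* in *tcer-1(glm27)* animals was lost with equal upper quartiles, equal totals and median-of-ratios scaling, at -0.05, -0.08 and -0.03 (limma adjusted p = 0.334, 0.092 and 0.498).

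**Figure D3:**
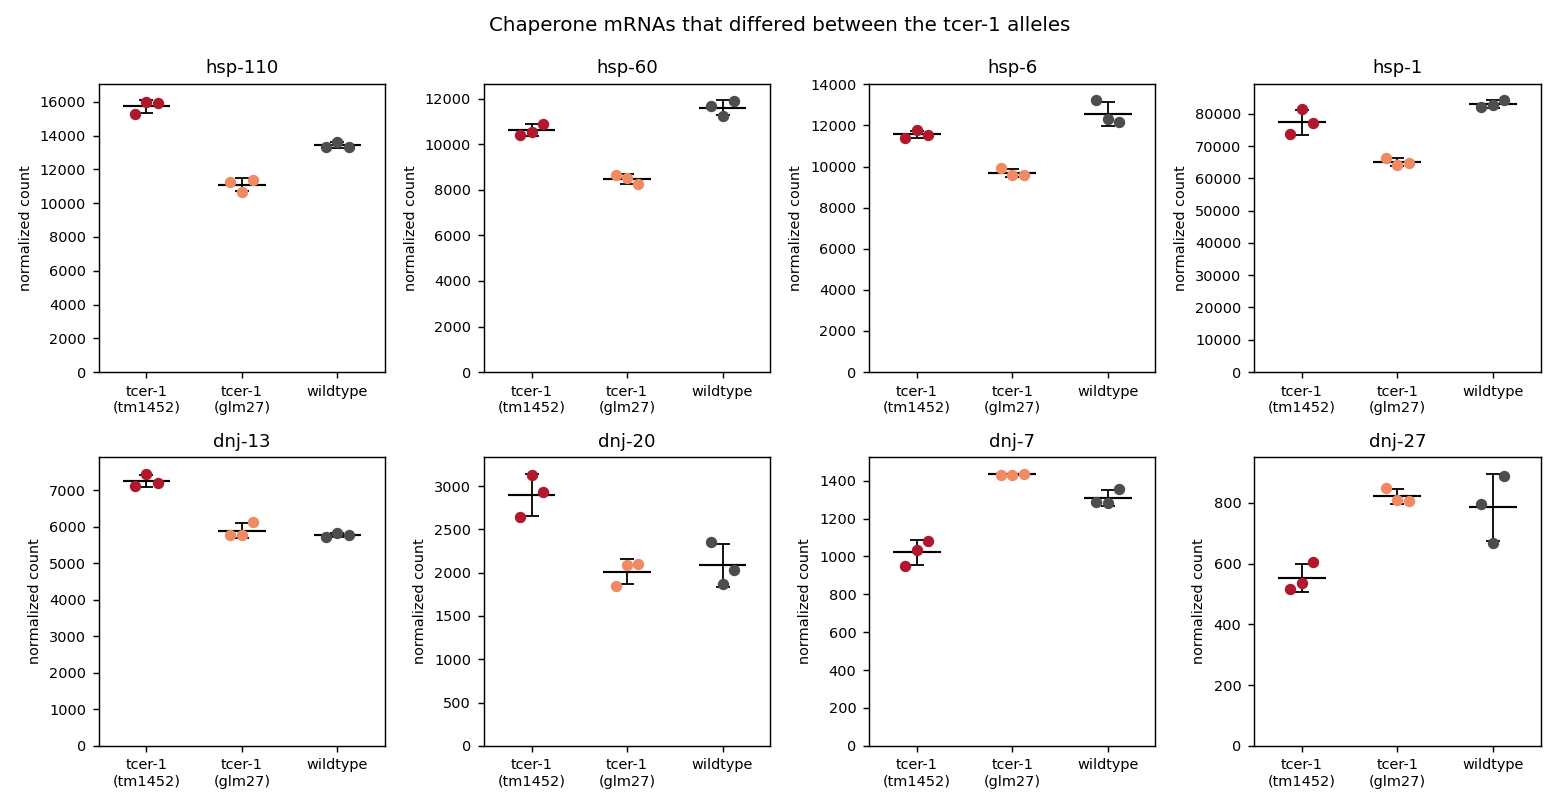
Normalized counts (y axis, from 0) of 8 members whose mRNA differed between the mutants, in each library of *tcer-1(tm1452)*, *tcer-1(glm27)* and wildtype (x axis), with each point a library, the line the mean and the bar the SD (n = 3). *hsp-110*, *dnj-13* and *dnj-20* are highest in *tcer-1(tm1452)* animals, while *dnj-7* and *dnj-27* are lowest there.

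Set directly against *tcer-1(glm27)*, 20 members (38.5%) were higher in *tcer-1(tm1452)* animals and 2 (3.85%) were lower, beside 27.3% and 19.8% of all genes tested. At least 2-fold, 1 was higher and 0 were lower, beside 11.4% and 8.08%. The 20 comprised 5 inducible genes, 4 other small heat shock protein genes, 4 constitutive hsp- genes and 7 dnj- genes. The 4 constitutive genes were *hsp-110*, *hsp-60*, *hsp-6* and *hsp-1*, with differences of 0.50, 0.32, 0.25 and 0.25. The 2 lower ones, *dnj-27* and *dnj-7*, both encode DnaJ proteins of the endoplasmic reticulum, related to mammalian ERdj5 and P58IPK.

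Among the dnj- genes, *dnj-24* had the largest rise in both mutants. It had 281, 278 and 283 normalized counts in *tcer-1(tm1452)* animals, 238, 265 and 240.5 in *tcer-1(glm27)* animals and 149.9, 112 and 124 in wildtype. All mutant libraries stood above all wildtype libraries. Its log2 fold change reached 1.13 in *tcer-1(tm1452)* animals and 0.95 in *tcer-1(glm27)* animals (standard error 0.11, limma adjusted p = 4.03e-07 and 3.62e-06), with a difference between the mutants of 0.18 (limma adjusted p = 0.189). *dnj-24* lies on chrIII:5415583-5424083, minus strand, and is 1 of 4 dnj- genes whose upstream window held both GAANNTTC and TTCNNGAA. Its matches do not overlap, whereas those shown for *hsp-1* do. The other dnj- genes with both motifs, *dnj-3*, *dnj-10* and *dnj-12*, rose in neither mutant. Their log2 fold changes in *tcer-1(tm1452)* and *tcer-1(glm27)* animals were -0.46 and -0.42, -0.05 and -0.25, and -0.24 and -0.37. Any part of these motifs was not tested. The stretch of *dnj-24* is shown next, ending 178 bases before the gene start (chrIII:5424262-5424320, minus strand).
dnj-24: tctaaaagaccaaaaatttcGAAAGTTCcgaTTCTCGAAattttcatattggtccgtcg

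*dnj-13*, related to mammalian DNAJB1 and a partner of HSP-1 and HSP-110 in dissolving protein aggregates, had 7123, 7454 and 7193 normalized counts in *tcer-1(tm1452)* animals, 5779, 5772 and 6143 in *tcer-1(glm27)* animals and 5724, 5823 and 5775 in wildtype. Only the *tcer-1(tm1452)* libraries stood apart, with a log2 fold change of 0.33 (standard error 0.04, limma adjusted p = 1.37e-05) against 0.03 in *tcer-1(glm27)* animals (limma adjusted p = 0.585, but 0.11 with limma adjusted p = 0.0325 with equal upper quartiles, and 0.13 with limma adjusted p = 0.0172 after median-of-ratios scaling). *dnj-20*, related to ERdj3 of the endoplasmic reticulum, had 2646, 3126 and 2933 in *tcer-1(tm1452)* animals, 1841, 2092 and 2105 in *tcer-1(glm27)* animals and 2358, 1864 and 2030.2 in wildtype. It rose by 0.48 in *tcer-1(tm1452)* animals on the log2 scale (limma adjusted p = 0.000149), with -0.05 in *tcer-1(glm27)* animals (limma adjusted p = 0.659). The differences between the mutants passed the test for both genes, at 0.30 for *dnj-13* and 0.53 for *dnj-20* (limma adjusted p = 8.42e-05 and 0.000152).

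*dnj-27* had 518, 535 and 606 normalized counts in *tcer-1(tm1452)* animals, 851, 809.8 and 807 in *tcer-1(glm27)* animals and 796, 669 and 890.4 in wildtype. *dnj-7* had 948, 1036 and 1079.5 in *tcer-1(tm1452)* animals, 1433, 1432 and 1437 in *tcer-1(glm27)* animals and 1288, 1282 and 1359 in wildtype. The *tcer-1(tm1452)* libraries lay below the rest for both. The log2 fold changes in *tcer-1(tm1452)* and *tcer-1(glm27)* animals were -0.50 and 0.08 for *dnj-27* and -0.36 and 0.13 for *dnj-7*, and the mutants differed by -0.57 and -0.49 (limma adjusted p = 0.000148 and 7.74e-06). The value of *dnj-7* in *tcer-1(glm27)* animals missed the threshold (limma adjusted p = 0.059) and passed it after equalizing upper quartiles or totals or after median-of-ratios scaling, at 0.22, 0.18 and 0.23.

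Most other dnj- genes fell in both mutants by less than 2-fold. Of the cytosolic cochaperones of HSP-1, *dnj-12* fell by 0.24 and 0.37 and *dnj-19* fell by 0.12 and 0.29 in *tcer-1(tm1452)* and *tcer-1(glm27)* animals on the log2 scale. *dnj-11*, of the ribosome-associated MIDA1 family, fell by 0.29 and 0.48, and *dnj-25*, the auxilin that uncoats clathrin vesicles, fell by 0.22 and 0.50. *dnj-14*, the cysteine string protein of synaptic vesicles, had -0.19 in *tcer-1(tm1452)* animals (limma adjusted p = 0.0733), beside -0.23 in *tcer-1(glm27)* animals (limma adjusted p = 0.0322). The mitochondrial *dnj-10* and the import component *dnj-21* each passed in 1 mutant, *dnj-10* with -0.05 and -0.25 (limma adjusted p = 0.434 and 0.000802) and *dnj-21* with -0.28 and -0.18 (limma adjusted p = 0.0162 and 0.117) in *tcer-1(tm1452)* and *tcer-1(glm27)* animals. *dnj-29*, related to SEC63 of the endoplasmic reticulum, had -0.01 (limma adjusted p = 0.907) and -0.18 (limma adjusted p = 0.00333). Several of these calls depended on the scaling. Equal upper quartiles and median-of-ratios scaling removed the call of *dnj-29* in *tcer-1(glm27)* animals (-0.10 and -0.08, limma adjusted p = 0.0536 and 0.0998) and that of *dnj-19* in *tcer-1(tm1452)* animals (-0.08 and -0.03, limma adjusted p = 0.0687 and 0.472). The call of *dnj-21* was lost with median of ratios (-0.19, limma adjusted p = 0.084). *dnj-14* lost its call in *tcer-1(glm27)* animals under all 3 scalings (limma adjusted p = 0.0745 to 0.187) and gained one in *tcer-1(tm1452)* animals with equal totals (-0.20, limma adjusted p = 0.0478). The deepest decrease of a dnj- gene in either mutant was that of *dnj-26*, with 809, 662 and 709 normalized counts in *tcer-1(tm1452)* animals, 665, 628 and 691 in *tcer-1(glm27)* animals and 1167, 1156 and 1158 in wildtype (log2 fold changes -0.68 and -0.81).

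Beside the members, genes that work with them were counted from lists chosen with earlier results of these data known. *hsf-1*, the regulator of the heat shock response, had 1833, 1936 and 1864 normalized counts in *tcer-1(tm1452)* animals, 1971, 1561 and 1688 in *tcer-1(glm27)* animals and 2509, 2599.8 and 2598 in wildtype. On the log2 scale it fell by 0.45 in *tcer-1(tm1452)* animals and 0.57 in *tcer-1(glm27)* animals (limma adjusted p = 4.6e-05 and 7.17e-06). Of the 8 genes of HSF-1 and its partners, 6 fell in *tcer-1(tm1452)* animals and 7 in *tcer-1(glm27)* animals, with 0 higher. All 8 genes of the cytosolic chaperonin fell in both mutants, with median log2 fold changes of -0.33 and -0.40. Of 6 prefoldin genes, which pass clients to the chaperonin, 3 fell in *tcer-1(tm1452)* animals and 1 in *tcer-1(glm27)* animals. Of 16 genes of folding in the endoplasmic reticulum and its unfolded protein response, 1 rose and 13 fell in *tcer-1(tm1452)* animals and 2 rose and 12 fell in *tcer-1(glm27)* animals. Of 9 mitochondrial folding and stress genes, 1 rose and 2 fell in *tcer-1(tm1452)* animals and 1 rose and 5 fell in *tcer-1(glm27)* animals. Beside these lists, 35.3% of all genes tested rose and 34.1% fell in *tcer-1(tm1452)* animals, and 33.2% and 27.5% in *tcer-1(glm27)* animals.

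The order seen for *hsp-70* recurred in genes outside the hsp- names. Of 11 HSP90 cochaperone genes measured, 8 fell in *tcer-1(tm1452)* animals and 10 in *tcer-1(glm27)* animals, beside 34.1% and 27.5% of all genes. Only *unc-23* rose in either. *unc-23* encodes a BAG-domain regulator of HSP70 needed for muscle attachment, and it had 2527, 2644 and 2655 normalized counts in *tcer-1(tm1452)* animals, 1311, 1399 and 1493 in *tcer-1(glm27)* animals and 705, 690.4 and 653 in wildtype (log2 fold changes 1.93 and 1.03). *F44E5.4*, an HSP70-family gene, had 22211, 25364 and 25043 in *tcer-1(tm1452)* animals, 9943, 10062 and 17219 in *tcer-1(glm27)* animals and 5294, 4857 and 5629 in wildtype (log2 fold changes 2.20 and 1.19). Its relative *F44E5.5* had 29831, 29522 and 28737 in *tcer-1(tm1452)* animals, 11390.4, 11192 and 22783 in *tcer-1(glm27)* animals and 6607, 6226 and 6484 in wildtype, and sequence shared by both genes was not measured here. All 3 genes kept the genotypes apart, and *tcer-1(glm27)* replicate 3 was again the highest of its group. In contrast *sip-1*, a small heat shock protein of the germline and embryo, fell by 0.86 in *tcer-1(tm1452)* animals and 0.62 in *tcer-1(glm27)* animals on the log2 scale. *F08H9.3*, with a crystallin domain like *sip-1*, differed between the mutants by -1.19 (limma adjusted p = 0.00059), with 749, 486 and 384 in *tcer-1(tm1452)* animals and 1219, 1272 and 1083 in *tcer-1(glm27)* animals.

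The small RNA libraries gave another readout at the same genes. 22G-RNAs are antisense small RNAs made on mRNA templates by RNA-dependent RNA polymerases. Those bound by WAGO Argonautes silence their targets, and those of the CSR-1 Argonaute accompany germline genes that stay expressed. Their levels are in RPM, reads scaled by the authors to the depth of each library, where 1 read was worth about 0.06 to 0.08 RPM. Of the 52 members, 29 had a 22G-RNA locus in the table, among 6890 loci in all, and 28 of these passed the filter of a mean of 2 RPM. The loci named include none of the inducible or other small heat shock protein genes.

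In *tcer-1(tm1452)*, 3 of 28 loci (10.7%) were higher and 13 (46.4%) lower, against 11.6% and 50.2% of all 22G-RNA loci tested. In *tcer-1(glm27)*, 3 (10.7%) were higher and 18 (64.3%) lower, against 9.87% and 58.1%. The member loci thus fell about as often as 22G-RNA loci at large, with median log2 fold changes of -0.24 and -0.41 beside -0.28 and -0.36 for all loci. At least 2-fold, 0 loci were higher and 2 lower in *tcer-1(tm1452)* animals, against 3.95% and 9.29% of all loci. In *tcer-1(glm27)* animals 1 was higher at least 2-fold, against 2.58%, and 0 were lower, where the share of all loci is not reported here. Between the mutants, 6 member loci were higher and 4 lower in *tcer-1(tm1452)* animals, against 20.7% and 12.8% of all loci, and 0 were higher and 1 lower at least 2-fold, against 4.37% and 2.82%. These shares depend on the scale: with equal upper quartiles, which bring the median locus near 0, 7 member loci were higher and 2 lower in *tcer-1(tm1452)* animals, against 22.0% and 22.0% of all loci. On that scale 7 were higher and 5 lower in *tcer-1(glm27)* animals, against 21.7% and 24.1%.

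*dnj-24*, a WAGO-class locus, had the most 22G-RNAs of any member and, in *tcer-1(tm1452)* animals, the deepest decrease. Its 22G-RNAs stood at 103, 100.5 and 131 RPM in *tcer-1(tm1452)* animals, 196, 200.1 and 196 in *tcer-1(glm27)* animals and 288, 300.5 and 284 in wildtype. The 3 genotypes did not overlap, and lay in the opposite order to the *dnj-24* mRNA given above. On the log2 scale they changed by -1.39 in *tcer-1(tm1452)* animals (standard error 0.09, limma adjusted p = 4.12e-06), beside -0.55 in *tcer-1(glm27)* animals (limma adjusted p = 0.00107). With equal upper quartiles the values were -1.08 and -0.17, and the decrease in *tcer-1(glm27)* animals no longer passed the test (limma adjusted p = 0.232).

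*hsp-2*, the pseudogene related to HSP70, was the other WAGO-class locus with a decrease of at least 2-fold. Its 22G-RNAs had 37.98, 36.6 and 40.4 RPM in *tcer-1(tm1452)* animals, 42.4, 44.7 and 45.4 in *tcer-1(glm27)* animals and 76.1, 78.5 and 80.9 in wildtype, with log2 fold changes of -1.02 and -0.82 that passed the test under every scaling tried. Its mRNA did not move the opposite way, with 15.8, 10.6 and 13.1 normalized counts in *tcer-1(tm1452)* animals, 21.7, 16.17 and 15.9 in *tcer-1(glm27)* animals and 22.0, 27.2 and 27.3 in wildtype (log2 fold changes -0.91, limma adjusted p = 0.0073, and -0.49, limma adjusted p = 0.126).

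The 22G-RNAs of *dnj-7*, of the WAGO class, had 46.0, 42.7 and 57.8 RPM in *tcer-1(tm1452)* animals, 26.6, 29.2 and 31.6 in *tcer-1(glm27)* animals and 54.3, 62.4 and 56.7 in wildtype. They fell in *tcer-1(glm27)* animals, by 0.96 on the log2 scale (limma adjusted p = 0.000194), where the mRNA was highest, and had -0.25 in *tcer-1(tm1452)* animals (limma adjusted p = 0.103). *dnj-27*, a target of 23H-RNAs by the table's class, had 4.69, 4.32 and 4.06 RPM of 22G-RNAs in *tcer-1(tm1452)* animals, 10.7, 10.4 and 10.98 in *tcer-1(glm27)* animals and 3.75, 3.44 and 3.75 in wildtype. The *tcer-1(glm27)* libraries stood apart, with a log2 fold change of 1.33 (standard error 0.09, limma adjusted p = 4.37e-06), and the mRNA of *dnj-27* overlapped between *tcer-1(glm27)* and wildtype.

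*hsp-90*, listed in both the ALG-3/4 target and the CSR class, had 43.3, 43.8 and 51.6 RPM in *tcer-1(tm1452)* animals, 23.98, 24.5 and 22.8 in *tcer-1(glm27)* animals and 30.4, 34.05 and 28.4 in wildtype. The mutants lay on opposite sides of wildtype, with log2 fold changes of 0.56 and -0.36 and a difference of 0.93 between them (limma adjusted p = 9.32e-05). The side of *tcer-1(glm27)* was lost with equal upper quartiles (0.01) and the call of *tcer-1(tm1452)* with equal miRNA totals (0.18, limma adjusted p = 0.241). *dnj-29* and *dnj-20* were the other member loci that rose in *tcer-1(tm1452)* animals, by 0.41 and 0.57, and also lost that call with equal miRNA totals.

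**Figure D4:**
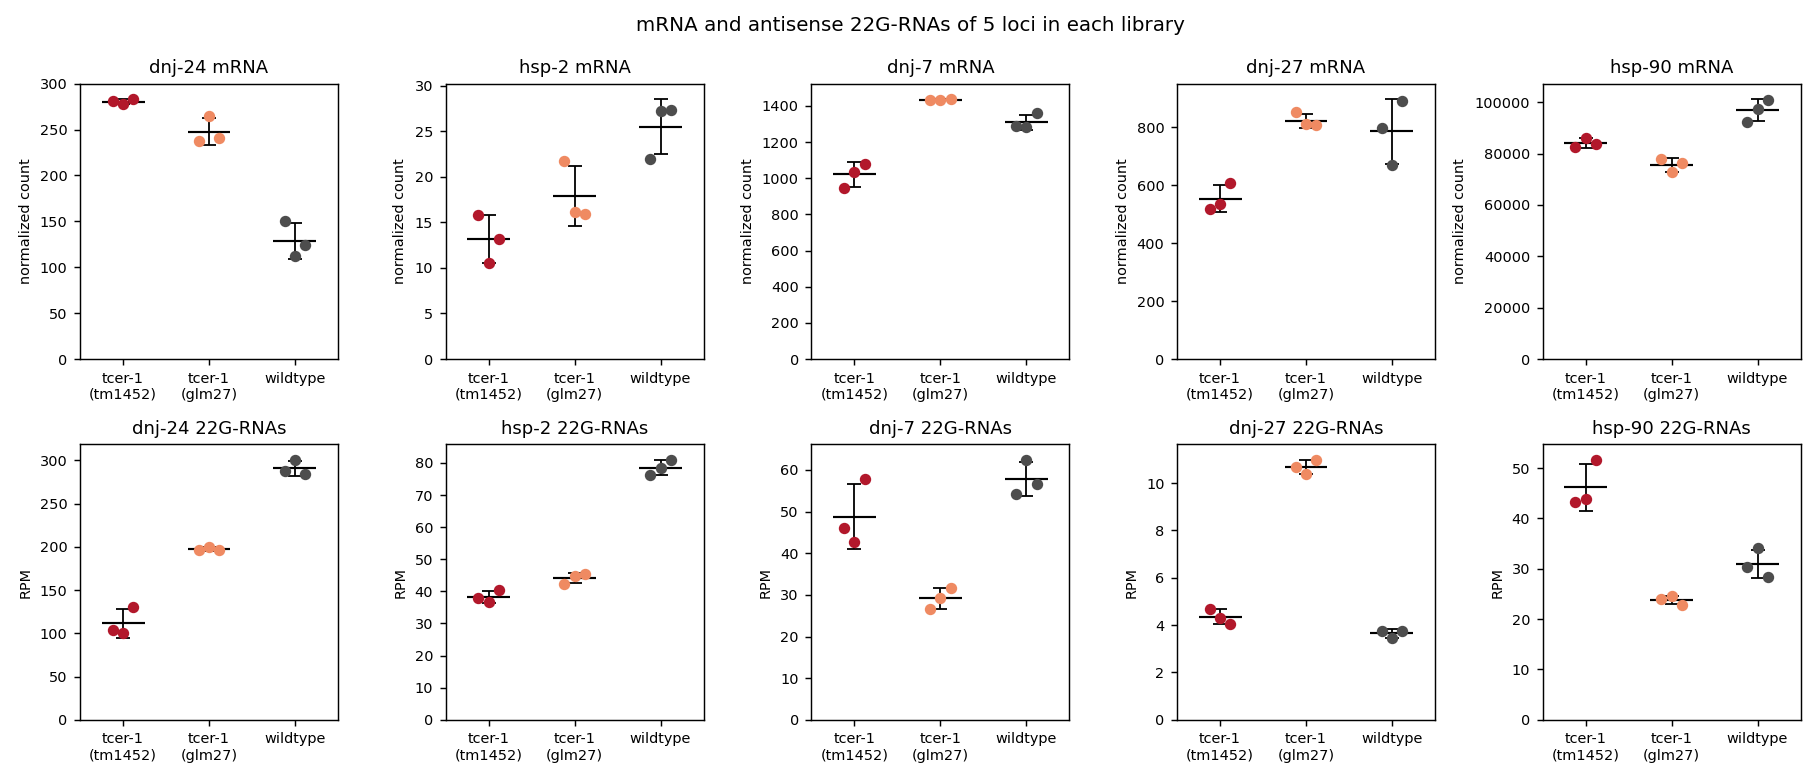
mRNA as normalized counts (top row) and 22G-RNAs as RPM (bottom row) of *dnj-24*, *hsp-2*, *dnj-7*, *dnj-27* and *hsp-90* in each library of *tcer-1(tm1452)*, *tcer-1(glm27)* and wildtype (x axis), with each point a library, the line the mean and the bar the SD (n = 3). *dnj-24* has its highest mRNA and lowest 22G-RNAs in *tcer-1(tm1452)* animals, while for *hsp-2* both readouts are lower in the mutants.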

How the data were processed

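The deposited mRNA values are normalized counts, which is a signal scaled by library. The authors trimmed with fastp, aligned with STAR, counted with RSEM and divided by DESeq2 size factors, on a WormBase release of the WBcel235 genome. The small RNA values were deposited by the authors as RPM per feature, made with tinyRNA. Neither is a raw count, and whole reads could be recovered for only 35.5 to 79.3% of the low mRNA values within 0.02 of a read, so count tests were not run. Libraries marked strand, and the strand counted is not given in the sources used here.

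limma 3.58.1 in R 4.3.3 (with a trend) was fitted to log2(value + 1) of features with a mean of at least 2, all 9 libraries of a kind in 1 fit, with Benjamini-Hochberg adjustment over all features tested. It was tested on simulated data. Groups came from the labels. Replicate numbers were not used to pair samples. Positions and the 52 matched gene IDs came from an annotation of WBcel235, copies from BLAST 2.17.0, and figures from matplotlib 3.10.9 in Python 3.11.15.

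The members and lists were chosen with earlier results of these data known. The genes named were those changed at least 2-fold, all hsp- genes, 12 set dnj- genes, the 3 highest and lowest per kb, and list genes changed at least 2-fold. *dnj-26*, *sip-1* and the *hsp-110*, *hsp-90*, *hsp-1* and *dnj-24* sequences were chosen after their values were seen. Other settings tried were a pseudocount of 0.5 or 5, every gene kept or a minimum mean of 10 (1 for small RNA), an adjusted p under 0.01, equal upper quartiles, totals or miRNA totals, no trend, a replicate block, the compared groups alone, each library left out and, added after seeing the data, median-of-ratios scaling and summed copies. The 491 small RNA entries that repeated a locus under another class were used once.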

Additional observations from a re-analysis of the deposited data

Results flagged for a closer look

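The effects of the 2 alleles differed by a test of the difference itself, limma's adjusted p under 0.05 for *tcer-1(tm1452)* minus *tcer-1(glm27)*, for 22 member mRNAs. The log2 differences were 1.05 for *hsp-12.2*, 0.89 for *hsp-16.11*, 0.87 for *hsp-16.2*, 0.86 for *hsp-70*, 0.74 for *hsp-16.49*, 0.70 for *hsp-25*, 0.60 for *hsp-16.41*, 0.52 for *hsp-43* and 0.41 for *hsp-17*. Among constitutive genes they were 0.50 for *hsp-110*, 0.32 for *hsp-60*, 0.25 for *hsp-6* and 0.25 for *hsp-1*. Among dnj- genes they were 0.53 for *dnj-20*, 0.30 for *dnj-13*, 0.28 for *dnj-25*, 0.20 for *dnj-10*, 0.19 for *dnj-11*, 0.18 for *dnj-29*, 0.17 for *dnj-19*, -0.49 for *dnj-7* and -0.57 for *dnj-27*.

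The 22G-RNAs of 10 member loci differed between the alleles in the same test. The log2 differences were 0.93 for *hsp-90*, 0.72 for *dnj-7*, 0.62 for *dnj-14*, 0.32 for *hsp-6*, 0.31 for *dnj-13*, 0.27 for *dnj-5*, -0.20 for *hsp-2*, -0.23 for *hsp-60*, -0.83 for *dnj-24* and -1.13 for *dnj-27*.

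26G-RNAs of the ALG class, which enter no comparison above, stood above all wildtype libraries at 3 members. At the other members listed in that class, *dnj-2*, *dnj-5*, *dnj-20*, *dnj-28* and *hsp-110*, they did not. The share among all loci of the class was not counted. Their mean was 0.84 RPM in *tcer-1(tm1452)* and 0.227 RPM in *tcer-1(glm27)* for *dnj-19*, and in *tcer-1(tm1452)* 0.377 RPM for *hsp-90* and 0.0867 RPM for *hsp-1*. With 1 read worth 0.06 to 0.08 RPM, these are few reads, and no test was run on them. *hsp-1* had 0.07, 0.03 and 0.16 RPM in *tcer-1(tm1452)* and 0 in each wildtype library, so it lies at the floor.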

How the results depend on the processing

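For the 52 members' mRNA, the counts of higher and lower calls against wildtype stayed within 1.5 times of those reported under every alternative, while the 2 lower in *tcer-1(tm1452)* animals than in *tcer-1(glm27)* animals became 5 with equal upper quartiles and 6 with equal totals. With each library left out, higher and lower calls were 15 to 15 and 25 to 29 in *tcer-1(tm1452)* animals, 13 to 14 and 27 to 30 in *tcer-1(glm27)* animals, and 20 to 23 and 2 to 4 between the mutants (4 without *tcer-1(tm1452)* replicate 1). For 22G-RNA loci they were 2 to 4 and 9 to 15 in *tcer-1(tm1452)* animals, and 2 to 4 and 16 to 19 in *tcer-1(glm27)* animals. The 3 higher loci of *tcer-1(tm1452)* became 7 with equal upper quartiles and 0 with equal miRNA totals, and the 13 lower ones 7 at an adjusted p under 0.01, 2 with equal upper quartiles and 20 with equal miRNA totals. In *tcer-1(glm27)* the 3 higher became 7 with equal upper quartiles and 1 with equal miRNA totals, and the 18 lower became 5 with equal upper quartiles.

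Among single results that passed the test as reported or under the alternative, 8 changed direction, all 22G-RNA changes, and 69 values that passed under neither also changed sign. With equal upper quartiles these were, in *tcer-1(glm27)* animals, *hsp-90* (0.0086), *dnj-9* (0.11), *dnj-11* (0.35), *dnj-23* (0.14) and *hsp-110* (0.34), and in *tcer-1(tm1452)* animals *dnj-30* (0.065). With equal miRNA totals they were *dnj-12* (-0.15) and *hsp-60* (-0.30) in *tcer-1(glm27)* animals. These scalings shift all loci together by construction. Over all alternatives 3981 values of single results stayed on their side of the threshold, 150 lost and 83 gained a call. Same-numbered libraries were not taken as pairs. Their deviations correlated at -0.038 to 0.075 across genes in mRNA and -0.525 to 0.379 in small RNA. Libraries of different numbers were not correlated, so the small RNA values cannot show whether a number marks a shared batch. With a replicate block, the higher and lower calls were 15 and 27 in *tcer-1(tm1452)* animals, 14 and 30 in *tcer-1(glm27)* animals and 20 and 2 between the mutants, and for 22G-RNA loci 3 and 12 in *tcer-1(tm1452)* animals and 4 and 16 in *tcer-1(glm27)* animals.

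With 3 libraries per genotype, small changes of constitutive genes lie near the scaling uncertainty of about 0.1 on the log2 scale, and the small RNA scale is less certain still.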
